A study of Mus musculus with 12 samples.

Results

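The response of MED23 null thymocytes to engagement of the T-cell receptor (TCR) was read from 4 of the 12 arrays of the study, which hold a mock-treated and an αCD3-treated sample from each of the 2 MED23 null mice (*Med23*flox/flox;*Lck-Cre*). The other 8 arrays hold the same pair of samples from 4 control mice. Of these, 2 carried Cre and an unfloxed *Med23* gene (*Med23*+/+;*Lck-Cre*), and 2 carried the floxed gene without Cre (*Med23*flox/flox). All 6 mice were females aged 6 to 7 weeks from a C57Bl/6 by 129Sv (F1) cross. Thymocytes were rested for 4 h and then held for 3 h either without stimulus (mock) or on a plate coated with an antibody to CD3 (αCD3), after which RNA was measured on Affymetrix mouse expression arrays, with 1 array per mouse and treatment.

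The *Med23*flox allele carries LoxP sites around internal exons, and the *Lck-Cre* transgene removes them from the DN4 stage of thymocyte development onwards. Total thymocytes were used, so cells of earlier stages and cells that escaped deletion are part of each null sample. The share of deleted cells differs between mice of this genotype. The study describes deletion as high in thymocytes of this genotype prepared in this way, and the arrays do not measure it. In such bulk samples a smaller number of responding cells and a smaller response per cell cannot be told apart.

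MED23 is a subunit of Mediator, the large complex that links DNA-bound transcription factors to RNA polymerase II, and it is known for its contact with the ETS factor ELK1, which sits with SRF on the serum response elements of immediate early genes. Antibody to CD3 clusters the TCR complex and starts kinase cascades that end in MAPK/ERK, calcium with calcineurin and NFAT, and NF-κB. Within hours these pathways switch on transcription factors such as EGR1, EGR2, NR4A1 and FOS, then inhibitory receptors such as CD5 and secreted factors such as chemokines.

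The response was taken for each mouse as the difference between its αCD3 and its mock array on the scale log2(signal + 50), where the signal is the deposited intensity. A difference of 1 on this scale is a 2-fold change, and at low signals it understates the ratio. The 8596 probe sets with a mean signal of at least 100 in the null mice after mock or after αCD3 were kept, of 12422 that are no array controls. Of these, 523 passed through the mock arrays only and 406 through the αCD3 arrays only.

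In the MED23 null thymocytes αCD3 raised *Nr4a1*, *Cd5* and *Ccl4*, and no probe set fell past the test. *Nr4a1* encodes an orphan nuclear receptor that TCR signals induce early, *Cd5* an inhibitory receptor of the T-cell surface and *Ccl4* a chemokine. These 3 probe sets are 0.0349% of the 8596 tested at an adjusted p under 0.05 (limma, mean response of the 2 null mice against 0), 0% were lower, and 510 had an unadjusted p under 0.05 in either direction. The test takes its spread from all 6 mice.

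*Nr4a1* rose from a mock signal of 264 to 2337 after αCD3 in null mouse 1 and from 441 to 3676 in null mouse 2. The αCD3 arrays of both mice thus lay far above both mock arrays. The ratio within a mouse was 8.87 and 8.33, a mean of 8.60 ± 0.380 (SD, n = 2), and the log2 difference was 2.93 in mouse 1 and 2.92 in mouse 2 (mean 2.93, standard error 0.18, adjusted p = 0.00727 from limma).

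*Cd5* rose from 272 to 1273 in mouse 1 and from 371 to 1547 in mouse 2, again without overlap of the treatments. Its ratios were 4.67 and 4.17 (mean 4.42 ± 0.355, SD, n = 2) and its log2 differences 2.04 and 1.92 (mean 1.98, standard error 0.15, adjusted p = 0.0209 from limma). *Ccl4* rose from 78.9 to 597 in mouse 1 and from 82.8 to 804 in mouse 2. Its mock mean of 80.9 was under the filter, so *Ccl4* entered the test through its αCD3 arrays alone, while *Nr4a1* and *Cd5* passed the filter in both treatments. The log2 differences of *Ccl4* were 2.33 and 2.69 (mean 2.51, standard error 0.22, adjusted p = 0.0344 from limma), and its ratios of 7.56 and 9.71 rest on those low mock signals.

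These calls depend on the filter, on the pairing and on which mice supply the spread. With no filter on low signals only *Nr4a1* passed (adjusted p = 0.0149 from limma), with *Cd5* at 0.053 and *Ccl4* at 0.0577. No probe set passed with the *Lck-Cre* controls only (smallest adjusted p = 0.137), with the floxed controls only (0.247) or without the block by mouse (0.0671). Without null mouse 1 or 2 no probe set passed, with a lone null mouse that is taken to vary like the others (smallest adjusted p = 0.383 and 0.379), while *Nr4a1* stood at 2.92 and 2.93. *Nr4a1* alone passed without *Lck-Cre* replicate 1 (adjusted p = 0.0313) and without *Med23*flox/flox replicate 1 (0.0144), and no probe set passed without *Lck-Cre* replicate 2 (smallest adjusted p = 0.0555), without *Med23*flox/flox replicate 2 (0.0557) or with the null mice alone (0.703).

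The sequences before the start sites of 5 responding genes are shown because they hold, or lack, the letters of elements known from genes that TCR signals induce. They are the 250 bases upstream of the annotated start in RefSeq on GRCm38.p6, written 5′ to 3′ on the strand of the gene. Capitals mark matches to the motifs searched on both strands: the serum response element (CArG box), the TATA box TATAAA, EGR sites GCGTGGGCG and GCGGGGGCG, the cyclic AMP response element TGACGTCA, the related TGCGTCA, AP-1 TGANTCA, an NF-κB site and the ETS site CCGGAAGT. TGCGTCA was added after the *Nr4a1* sequence had been read.
*Nr4a1*, chr15:101266596-101266845, plus strand: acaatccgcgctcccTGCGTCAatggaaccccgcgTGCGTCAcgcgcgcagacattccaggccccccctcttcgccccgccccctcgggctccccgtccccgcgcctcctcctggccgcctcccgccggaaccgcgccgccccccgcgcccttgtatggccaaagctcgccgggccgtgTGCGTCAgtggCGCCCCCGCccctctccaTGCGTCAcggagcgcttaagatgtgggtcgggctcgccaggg
*Cd5*, chr19:10738975-10739224, minus strand: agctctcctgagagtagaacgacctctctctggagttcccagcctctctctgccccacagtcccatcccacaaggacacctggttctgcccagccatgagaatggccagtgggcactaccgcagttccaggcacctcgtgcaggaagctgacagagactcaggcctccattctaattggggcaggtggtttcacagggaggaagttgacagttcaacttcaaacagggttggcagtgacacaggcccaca
*Egr2*, chr10:67537619-67537868, plus strand, 1 of 5 listed starts: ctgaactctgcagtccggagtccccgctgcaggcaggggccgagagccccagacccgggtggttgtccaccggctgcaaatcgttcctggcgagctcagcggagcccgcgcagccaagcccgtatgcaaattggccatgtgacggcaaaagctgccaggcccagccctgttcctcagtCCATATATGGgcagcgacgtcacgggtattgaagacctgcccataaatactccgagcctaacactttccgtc
*Fos*, chr12:85473640-85473889, plus strand: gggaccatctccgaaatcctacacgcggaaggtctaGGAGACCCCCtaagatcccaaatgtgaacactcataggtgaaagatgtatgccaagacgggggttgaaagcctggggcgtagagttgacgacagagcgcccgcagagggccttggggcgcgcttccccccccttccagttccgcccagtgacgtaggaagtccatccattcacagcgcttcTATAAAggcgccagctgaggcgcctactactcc
*Tnf*, chr17:35202008-35202257, minus strand: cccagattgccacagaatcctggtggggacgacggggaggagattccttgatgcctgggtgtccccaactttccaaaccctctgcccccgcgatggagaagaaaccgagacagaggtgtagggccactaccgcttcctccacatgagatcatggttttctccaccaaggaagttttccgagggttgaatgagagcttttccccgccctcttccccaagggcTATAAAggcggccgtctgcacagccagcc

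The *Nr4a1* stretch holds the EGR letters GCGGGGGCG on the opposite strand 60 to 52 bases before the start and TGCGTCA 4 times on the strand of the gene. The *Egr2* stretch holds a serum response element 72 to 63 bases before the start, *Fos* and *Tnf* hold TATAAA close to theirs, *Fos* also has an NF-κB match, and *Cd5* has no match to these motifs. Of the 32851 upstream stretches of this length in the table, 2.57% hold GCGGGGGCG, 1.75% TGCGTCA, 1.47% a serum response element, 12.4% TATAAA and 7.25% an NF-κB match. GCGTGGGCG is in 0.536% of them, TGACGTCA in 1.55%, TGANTCA in 6.75% and CCGGAAGT in 2.88%, and none of these was found in the 5 stretches shown. A match describes letters, not a bound site. Of 14 listed genes that reached 2-fold in both null mice, 11 had an entry in the table (all but *Ccl4*, *Cd6* and *Ier2*). Among these 11, TATAAA was found in 3, TGCGTCA in 2, an NF-κB match in 2, GCGGGGGCG in 1 and a serum response element in 1. The other motifs were found in 0. *Cd5*, *Xcl1*, *Ccl3*, *Nab2* and *Bcl2* held no match, so the 5 stretches shown hold more matches than the rest.

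Changes of at least 2-fold in the same direction in both null mice were rare. After αCD3, 36 probe sets, 0.419% of those kept, were higher in this way (the risers) and 30, 0.349%, were lower (the fallers). A further 38 probe sets, 0.442%, were at least 2-fold apart from mock in opposite directions in the 2 mice, 27 of them higher in mouse 1 and 11 higher in mouse 2. Changes of this size went the same way for 66 probe sets and opposite ways for 38, counts that depend on the filter. With a mean of at least 100 in both treatments, 10 were higher in both mice, 2 were lower and 30 went opposite ways. Null mouse 1 alone had 321 probe sets up and 249 down by 2-fold, and null mouse 2 had 183 up and 306 down. Over the 8596 probe sets, which are not independent, the differences of the 2 null mice correlated at 0.06, where pairs of control mice gave 0.03 to 0.16. In all, 50.3% of probe sets had the same sign in both null mice.

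Most of these probe sets were measured at low signal. A mean under 200 over the 4 null arrays was seen for 22 of the 36 risers, 26 of the 30 fallers and 27 of the 38 opposite changes. The mock mean was under 100 for 26 of the 36 risers and the αCD3 mean for 28 of the 30 fallers, so these probe sets passed the filter only through the treatment in which they were high. The lists differed at higher signal. Among the 3983 probe sets whose higher treatment mean reached 500, 10 were at least 2-fold higher in both mice, 0 were lower and 2 went opposite ways. These 10 include *Nr4a1*, *Cd5*, *Cd6*, *Ccl3*, *Ccl4*, *Xcl1*, *Itm2a*, *Egr2* and *Ier2*, all known from T-cell activation or the immediate early response, and a probe set with no single gene assigned. The latter went from 87.8 to 610 in mouse 1 and from 107 to 610 in mouse 2. In the control mice its log2 differences ran from -2.10 to 0.19. With no pseudocount the counts were 97 up and 98 down, with a pseudocount of 100 they were 17 and 5, and with a mean of at least 200 required they were 23 and 10.

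**Figure D1:**
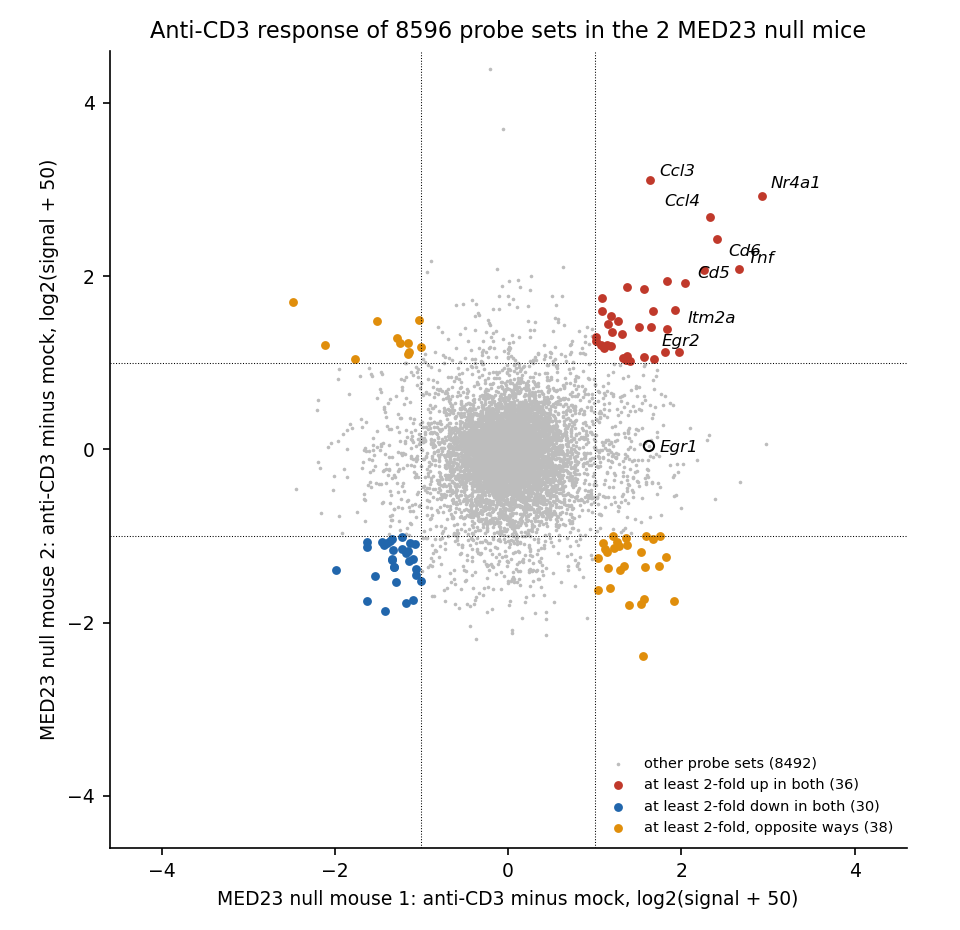
αCD3 minus mock difference on the log2(signal + 50) scale in null mouse 1 (horizontal) and null mouse 2 (vertical) for 8596 probe sets, 1 point each; dotted lines mark 2-fold. Of the 36 risers *Nr4a1* lies farthest along the diagonal, at 2.93 and 2.92, none of the 30 fallers goes below -1.99 in either mouse, and *Egr1* (open circle) lies at 1.63 and 0.04.

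**Figure D2:**
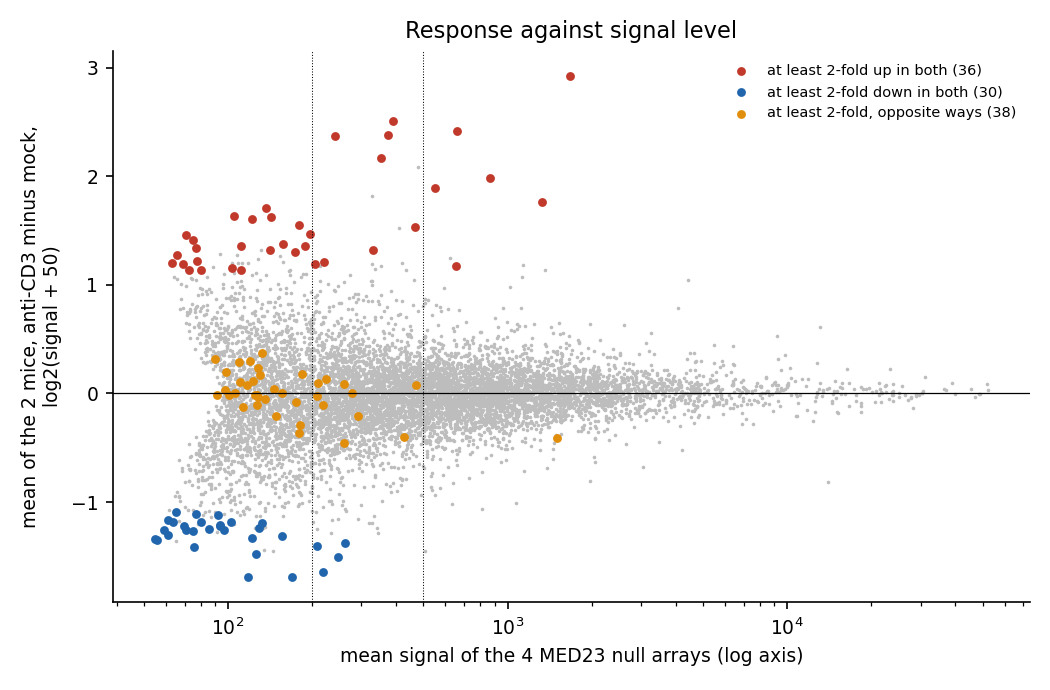
Mean response of the 2 null mice (vertical, log2 scale) against the mean signal of the 4 null arrays (horizontal, log axis), with dotted lines at signals of 200 and 500. Of 3767 probe sets with a mean of 500 or more, 6 were at least 2-fold higher in both mice, 0 were lower and 1 went opposite ways, and 22 of the 36 risers and 26 of the 30 fallers lie below 200.

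By their brightest probe sets all 4 measured EGR factors and NAB corepressors were higher after αCD3 in both null mice, though none passed the test. For *Egr1* in mouse 2 the difference was only 0.04, close to no change. *Egr2*, a zinc finger factor that restrains T-cell activation, went from 198 to 729 in mouse 1 and from 235 to 707 in mouse 2, log2 differences of 1.65 and 1.41 (adjusted p = 0.429 from limma). *Nab2*, which binds EGR proteins and represses through them, went from 132 to 404 and from 203 to 587, differences of 1.31 and 1.33 (adjusted p = 0.312). Both genes were higher after αCD3 in both null mice without overlap of the treatments, and neither passed the test. *Nab1*, the related corepressor, had differences of 0.55 and 0.96.

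*Egr1*, the EGR factor downstream of ERK and ELK1, split the 2 null mice. In mouse 1 it went from 209 to 748, a difference of 1.63, and in mouse 2 from 528 to 544, a difference of 0.04. The mock signal of mouse 2 was above those of all 4 control mice (226 to 471), while both null αCD3 signals were below all 4 control signals (1438 to 2283). A second *Egr1* probe set, with signals of 44.0 to 171 in the null mice, had differences of -0.04 and -1.24. The list of EGR and NAB genes had 4 of 6 members on the array, 0 past the test, 4 higher in both null mice and a median difference of 1.08. Here and in the other lists, counts and medians are over all measured members, also those under the filter. Over all 8251 genes, with 1 probe set each, the median was -0.02, 23.4% were higher in both null mice and 25.7% were lower in both.

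Of the other NR4A receptors *Nr4a2* was measured by a pair of probe sets that disagree. The brighter went from 79.2 to 172 in mouse 1 and from 137 to 128 in mouse 2, differences of 0.78 and -0.07, and the other from 17.2 to 170 and from 73.0 to 171, differences of 1.71 and 0.84.

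Among the AP-1 genes *Fos* was alone in reaching 2-fold in both null mice. *Fos*, the partner of JUN in the AP-1 dimer, went from 91.4 to 272 in mouse 1 and from 119 to 338 in mouse 2, differences of 1.19 in both (adjusted p = 0.688 from limma), and a second *Fos* probe set below the filter had -0.10 and -0.04. *Fosb* was lower in both mice by small amounts (-0.08 and -0.36). *Junb* (-0.23 and 0.59), *Jund* (0.28 and -0.05) and *Atf3* (1.91 and -0.30) moved opposite ways in the 2 mice. Of 9 AP-1 genes 1 was higher and 1 lower in both null mice, 0 passed the test and the median was 0.11.

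Among 14 other immediate early genes the clearest was *Ier2*, a nuclear protein of the early growth response. It went from 390 to 924 in mouse 1 and from 376 to 928 in mouse 2, differences of 1.15 and 1.20 (adjusted p = 0.306 from limma). The 2 null mice were nearly equal in both treatments. *Myc*, the growth regulator, went from 85.0 to 200.5 in mouse 1 and from 111 to 349 in mouse 2, differences of 0.89 and 1.31. Its mock mean was under the filter, so *Myc* passed it only through the αCD3 arrays, which favours a rise. *Crem*, a factor of the cyclic AMP response, had 0.64 and 0.74, and *Zfp36l1*, which destabilises AU-rich mRNAs, 0.45 and 0.83. *Rrad*, a small GTPase, had 0.05 and 0.66, and *Ier3* had -0.36 and -0.34. In this list 9 genes were higher in both null mice, 2 were lower, 0 passed the test and the median was 0.29.

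The listed feedback regulators of MAPK had a median difference of 0.14, with 0 of 6 past the test. *Dusp2*, a phosphatase that acts on ERK in the nucleus, went from 1370 to 1543 in mouse 1 and from 1292 to 1777 in mouse 2, differences of 0.17 and 0.45. *Dusp6*, the cytoplasmic ERK phosphatase, had -0.06 and -0.39, *Dusp1* 0.01 and -0.05, and *Phlda1*, an ERK-induced gene, 0.18 and 0.71. *Dusp16*, a phosphatase of JNK and p38 outside this list that was named after its values were seen, was a riser at low signal, from 29.0 to 117 and from 33.0 to 141 (1.08 and 1.20, adjusted p = 0.732 from limma).

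Of the calcium and NFAT genes, *Nfatc1*, the NFAT member that TCR signals themselves induce, went from 280 to 663 in mouse 1 and from 358 to 537 in mouse 2, differences of 1.11 and 0.52. Its αCD3 signals lay above both mock signals. *Rcan1*, a calcineurin inhibitor that NFAT can induce, was lower in both (-0.42 and -0.64), as were *Nfatc3* (-0.12 and -0.35) and the kinase gene *Camk4* (-0.14 and -0.17). The 9 genes had a median of -0.11, with 0 past the test.

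Genes of the NF-κB pathway were mostly higher. *Nfkbia*, the inhibitor that NF-κB resynthesises to end its own signal, went from 2884 to 4965 in mouse 1 and from 3093 to 5398 in mouse 2, differences of 0.77 and 0.79 (adjusted p = 0.429 from limma), and its second probe set gave 0.70 and 0.49. *Relb*, a subunit of the noncanonical pathway, had 1.04 and 0.68, *Nfkbiz* 0.47 and 0.80, *Birc3*, an inhibitor of apoptosis and ubiquitin ligase, 0.41 and 0.64, and *Tnfaip3*, which encodes the feedback inhibitor A20, 0.85 and 0.25. *Nfkbie*, another inhibitor, had 0.06 and -1.47. Of 15 genes 10 were higher in both null mice, 0 were lower in both, 0 passed the test and the median was 0.26.

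The chemokine and cytokine genes held several of the larger responses. Of 14 genes 9 were higher in both null mice, 0 were lower in both and the median was 0.64, against 0.56 in the control mice. Over the genes past the filter alone the order was the reverse, with a median of 1.04 against 1.43 in the control mice. *Ccl4* was the gene that rose past the test. Of the 9 genes past the filter, 4 passed it only through the αCD3 arrays, among them *Ccl4*, *Tnf* and *Ccl3*. *Tnf* went from 48.2 to 573 in mouse 1 and from 34.9 to 310 in mouse 2, differences of 2.67 and 2.08 (adjusted p = 0.306 from limma). *Xcl1*, a chemokine of T-cells and NK cells, went from 173 to 746 and from 234 to 1042, differences of 1.84 and 1.94. *Ccl3*, the chemokine next to *Ccl4* in function, differed between the mice in size, from 144 to 557 (1.64) in mouse 1 and from 42.3 to 747 (3.11) in mouse 2. For each of these genes both αCD3 arrays lay above both mock arrays. For *Ccl4*, *Tnf* and *Ccl3* the filter favours this, as they passed it through the αCD3 arrays alone. The share of all probe sets with this pattern was not counted.

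*Ltb*, which encodes lymphotoxin β, had differences of 0.25 and 1.84, and *Tgfb1* 0.62 and 1.10. *Lta* differed by probe set. The brighter one split the 2 mice, with -0.52 and 0.19, and another had 1.27 and 1.48. The latter had mock signals of 75.4 and 56.0 and passed the filter only through its αCD3 arrays. *Il2*, the T-cell growth factor, read at most 10.0 on all 4 null arrays. At signals so far under the filter this probe set shows neither a response nor its absence. By qRT-PCR the study reports that αCD3 raised *Il2* in such thymocytes, to a comparable degree in MED23 null and control cells. A control probe set for *Il2* on the array, outside the comparison, read 53.4 and 143 in mouse 1 and 21.2 and 22.0 in mouse 2, where the control mice had 24.6 to 62.6 over both treatments.

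NK cells also make these chemokines. The NK and cytotoxic markers had a summed signal of 5521 and 4891 in null mouse 1 and 3884 and 3883 in null mouse 2 (mock and αCD3), above the 1485 to 2158 of all 8 control arrays. Of its 6 measured genes *Gzma*, a granule protease, made up most of the sum (4825 and 4252, 3352 and 3268), while *Ncr1*, which defines NK cells, was under the filter. The sums did not rise with αCD3 in either null mouse, and their part in the chemokine response was not tested. *Gzmb*, also induced on T-cell activation, had differences of 1.69 and 0.49.

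**Figure D3:**
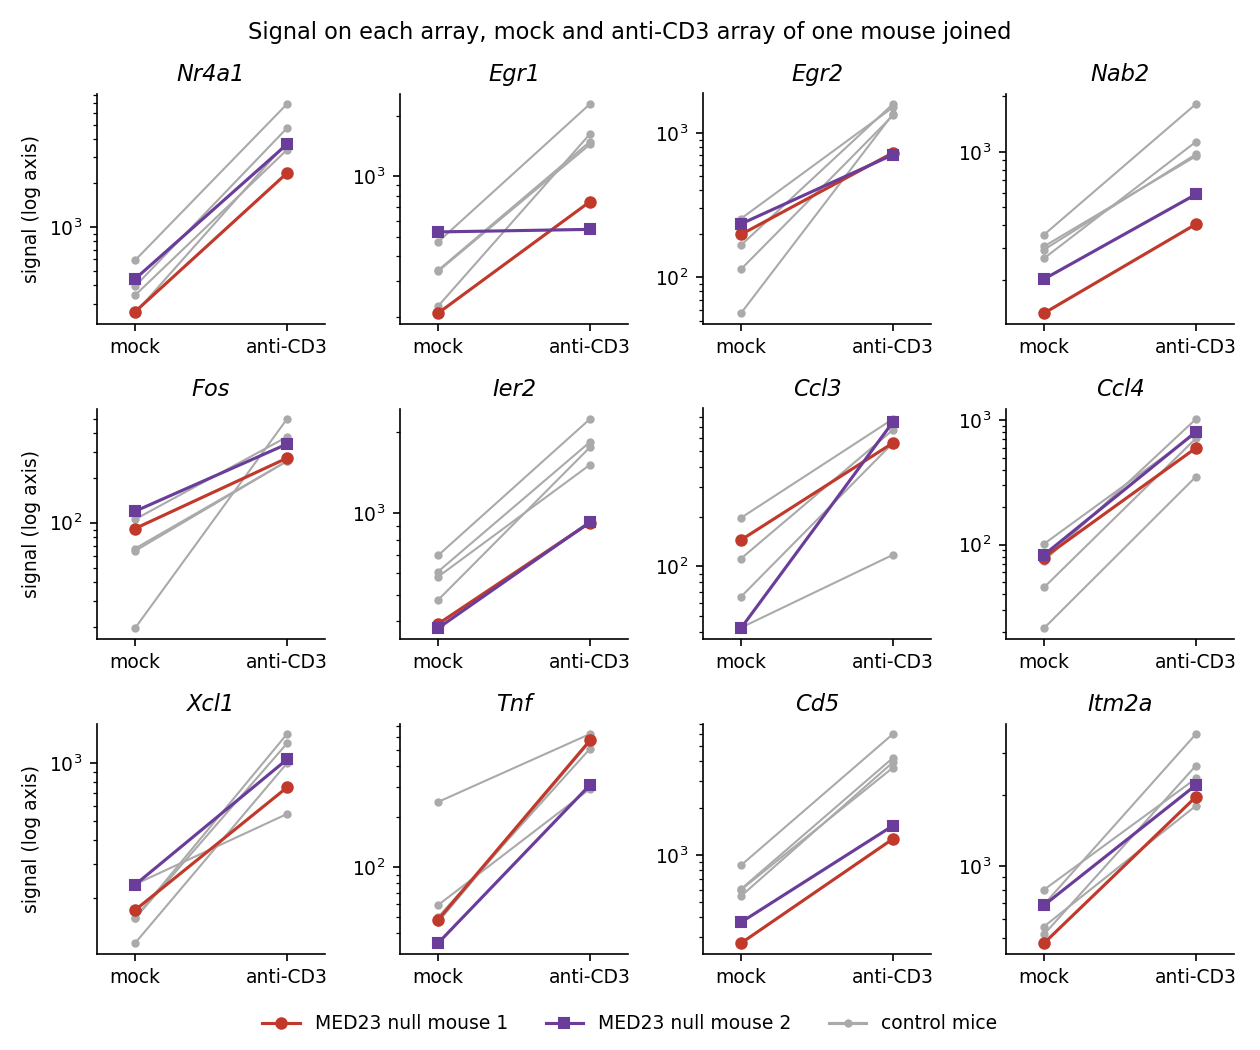
Signal (log axis) on each array for 12 genes, with the mock and αCD3 array of a mouse joined by a line, in null mouse 1, null mouse 2 and the 4 control mice. All 12 lines of null mouse 1 slope upward, *Egr1* is flat in null mouse 2 (528 and 544), and for *Cd5*, *Nab2* and *Ier2* the null lines run below the control lines at both ends.

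Surface molecules of activation followed *Cd5* in part. *Itm2a*, a membrane protein induced during positive selection, went from 477 to 1959 in mouse 1 and from 688 to 2194 in mouse 2, differences of 1.93 and 1.60 (adjusted p = 0.306 from limma). *Cd6*, a scavenger receptor related to CD5, was read by a pair of probe sets that differ in size. The brighter went from 783 to 1582 and from 874 to 2229 (0.97 and 1.30), and the other from 138 to 951 and from 210 to 1347 (2.42 and 2.43). Both had an adjusted p of 0.306 in limma. *Pdcd1* had 0.76 and 0.46, *Icos* 0.66 and 0.23 and *Cd83* 0.58 and 1.47, whereas *Tnfrsf9*, which encodes 4-1BB, had -0.80 and -0.45 by its brighter probe set. The other *Tnfrsf9* probe set, under the filter, had 0.57 and 0.98, from 13.3 to 44.2 and from 14.2 to 76.5, and was at least 2-fold higher in all 4 control mice. Of 17 genes 11 were higher and 3 lower in both null mice, 1 rose past the test and the median was 0.39.

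The receptor apparatus stayed closer to 0. Over 20 genes of the TCR complex, its coreceptors and proximal kinases the mean responses ran from -0.41 to 0.49 with a median of 0.09, and 0 passed the test. *Zap70*, the kinase that binds the phosphorylated CD3 and ζ chains, had 0.23 and 0.52, *Ptpn6*, the phosphatase SHP-1, 0.42 and 0.56, and *Prkcq* 0.30 and 0.39. *Cd4* had -0.35 and -0.09. *Cd3e*, a chain of the complex that the antibody binds, went from 5080 to 3323 in mouse 1 and from 2868 to 5092 in mouse 2 (-0.60 and 0.82), opposite ways, while *Cd3d* (0.07 and -0.04) and *Cd3g* (0.10 and -0.18) stayed near 0.

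Genes of quiescence and homing leaned lower. *Il7r*, the receptor for interleukin 7, went from 701 to 537 in mouse 1 and from 761 to 576 in mouse 2, differences of -0.36 and -0.37. *Tob1*, an antiproliferative gene, had -0.35 and -0.28, *Slfn1*, a quiescence gene, -0.21 and -0.49, and the homing receptor *Ccr7* -0.39 and -0.15. In this list 8 of 15 genes were lower in both null mice, 2 were higher, 0 passed the test and the median was -0.15. *Klf2*, a regulator of thymic egress, was under the filter with null signals of 28.9 to 44.2. *S1pr1*, the egress receptor under KLF2, had 0.33 and 0.55 at signals of 65.0 to 118, and *Cd52* had 0.41 and 0.09.

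Among interferon response genes *Irf1*, which TCR and interferon signals both induce, went from 603 to 2042 in mouse 1 and from 715 to 1185 in mouse 2, differences of 1.68 and 0.69. *Irf8* had 0.73 and 1.12, and *Irf4*, a factor scaled to TCR signal strength, 0.63 and 2.11, from mock signals of 20.6 and 38.7. *Igtp* had 0.57 and 0.42, while *Irf7* had -0.31 and -0.82 (0.26 and -0.11 by another probe set) and *Isg15* -0.29 and -0.15. Of 13 genes 6 were higher and 3 lower in both null mice, with 0 past the test and a median of 0.03.

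The listed growth genes leaned upward. *Nop56*, a nucleolar protein and MYC target, went from 451 to 692 in mouse 1 and from 565 to 936 in mouse 2 (0.57 and 0.68), and *Srm* had 0.46 and 0.38. From the heat shock list *Hspa5*, a chaperone of the endoplasmic reticulum, had 0.50 and 0.60. From the cell cycle list *Ccnd2*, a cyclin of G1, had 1.47 and 0.73 from mock signals of 46.2 and 34.8, and it passed the filter only through its αCD3 arrays. Of 15 growth genes 8 were higher and 1 lower in both null mice (median 0.20), of 21 cell cycle genes 10 were higher and 6 lower (median 0.09), and of 10 heat shock genes 3 were higher and 1 lower (median 0.04). The shares higher and lower in both were 53.3% and 6.67% of growth genes, 47.6% and 28.6% of cell cycle genes and 30.0% and 10.0% of heat shock genes. Over all 8251 genes they were 23.4% and 25.7%. None of these genes passed the test.

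Death and survival genes mostly went opposite ways in the 2 null mice. Of all 8251 genes, with 1 probe set each, 4197 did so. Of 10 genes of the BCL2 and GADD45 families 0 were higher in both null mice, 2 were lower, *Bid* (-0.30 and -0.24) and *Bak1* (-0.14 and -0.16), and 8 went opposite ways, each by its brightest probe set. Dimmer probe sets differed. For *Bcl2l1*, which encodes the survival factor BCL-XL, the brighter probe set had -0.26 and 0.13, and a dimmer one was among the fallers, from 208 to 47.7 and from 196 to 65.9 (-1.40 and -1.08). The brighter *Bcl2* probe set had 0.68 and -0.51, while a dimmer one had 1.98 and 1.13, from mock signals of 50.7 and 82.4. *Gadd45b* had -0.14 and 0.07 by its brighter probe set and 0.34 and 1.10 by another.

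Lineage and ETS factors stayed near 0 as groups (medians 0.02 of 16 genes and -0.04 of 11). *Gata3*, the factor of CD4 lineage choice, went from 956 to 1533 in mouse 1 and from 833 to 1282 in mouse 2 (0.65 and 0.59). *Fli1* went from 625 to 375 and from 618 to 442 (-0.67 and -0.44), and *Elk3*, a relative of ELK1, had -0.32 and -0.25. *Elk1* itself had 0.22 and -0.99. Of 12 Mediator subunits 3 were higher and 3 lower in both null mice (median 0.03), among them *Ccnc* at -0.40 and -0.28 and *Med1* at -0.29 and -0.27.

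**Figure D4:**
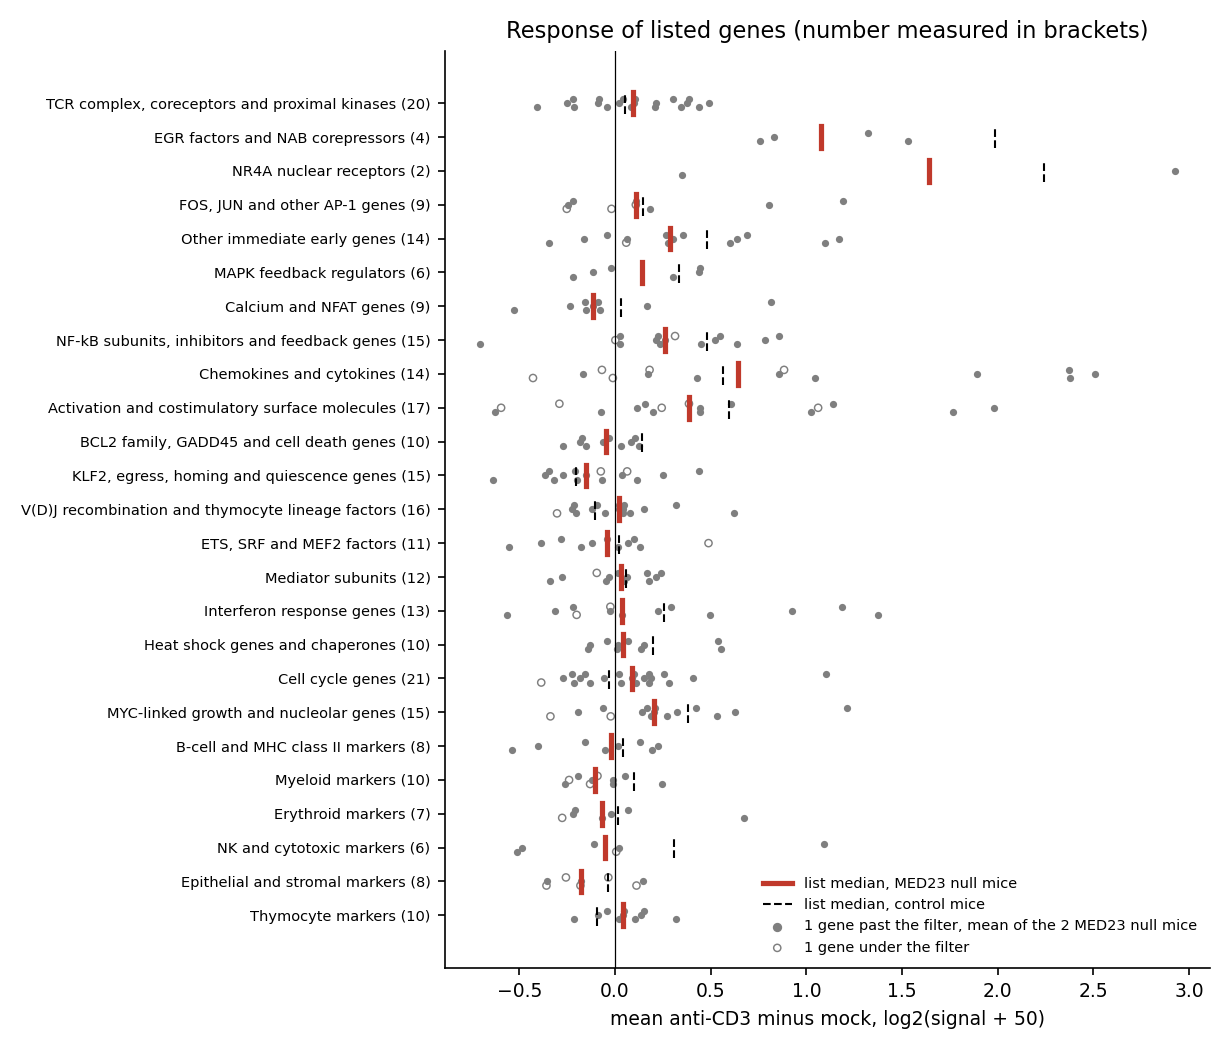
Mean response of the 2 null mice for each measured gene of each list (points, log2(signal + 50) scale, filled where the gene passed the filter), with the list median in the null mice (red bar) and in the control mice (dashed line). The medians of the NR4A list (1.64, 2 genes), the EGR and NAB list (1.08) and the chemokine list (0.64) are the highest, and the remaining medians lie between -0.18 and 0.39.

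The responses were set against those of the 4 control mice by the test of the difference in response (limma, null minus control). No probe set passed, 0% of those tested, with a smallest adjusted p of 0.31 and 467 at an unadjusted p under 0.05. Both null responses lay below all 4 control responses for 7.49% of probe sets and above them for 6.36%. Both null mice were lower after αCD3 and all 4 controls higher for 1.72%, and the reverse held for 1.71%. For *Egr2* the null responses of 1.65 and 1.41 lay below control responses of 2.35 to 3.72, a difference of -1.48 (95% interval -2.36 to -0.60, unadjusted p = 0.00557, adjusted p = 0.737). For *Egr1* the null responses of 1.63 and 0.04 lay below 1.94 to 2.60 (difference -1.34, interval -2.40 to -0.28, adjusted p = 0.883). The *Egr1* difference was -0.55 without null mouse 2 and -2.13 without null mouse 1.

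Of the genes that rose in the null mice, *Cd5* had responses of 2.04 and 1.92 against 2.51 to 2.75 in controls (difference -0.69, interval -1.14 to -0.24, adjusted p = 0.747). Its signals were lower in the null mice before stimulation as well, 272 and 371 against 546 to 861 on the control mock arrays. *Nr4a1* had 2.93 and 2.92 against 3.13 to 3.65 (difference -0.49, interval -1.0 to 0.02, adjusted p = 0.908), and *Ccl4* 2.33 and 2.69 against 2.46 to 3.11 (difference -0.26, interval -0.91 to 0.39). The intervals of *Nr4a1* and *Ccl4* reach from a clearly smaller response to an equal or larger one, so a smaller response was neither shown nor excluded by them.

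*Nfatc1* (difference -0.76, interval -1.41 to -0.10) and *Dusp2* (-0.62, interval -1.18 to -0.06) also lay below all 4 controls in both null mice. So did *Nab2* (-0.47, interval -1.09 to 0.15), *Ier2* (-0.38, interval -0.88 to 0.12), *Fos* (-0.63, interval -1.76 to 0.51), *Cd2* (-0.48, interval -1.04 to 0.09) and the brighter *Cd6* probe set (-0.50, interval -0.99 to -0.01). None of these passed the adjusted test. Other genes lay within or above the control range, with *Tnf* at a difference of 0.37 (interval -0.71 to 1.45), *Ccl3* at 0.59 (-0.71 to 1.89), *Itm2a* at -0.14 (-0.87 to 0.59) and *Nfkbia* at 0.20 (-0.29 to 0.69). *Pcyt1a*, an enzyme of phosphatidylcholine synthesis, gave a difference of 0.15 by its brighter probe set and of -1.09 (interval -2.10 to -0.07) by the other.

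Of the 21 probe sets, 0.244% of those kept, that reached 2-fold in all 4 control mice, all 21 were higher in both null mice and 11 reached 2-fold in both. The shared 11 are 52.4% of the control list and 30.6% of the null list of 36. Both null responses were below all 4 control responses for 12 of the 21 and above them for 0, but these probe sets were chosen by high control values, which favours that direction. The 2 of the 21 that reached 2-fold in neither null mouse were *Rrad* and a probe set with no single gene assigned, at 0.47 and 0.70. The difference in response was -0.99 for *Rrad* (interval -1.61 to -0.37) and -1.05 for the other (-1.59 to -0.51). Neither passed the adjusted test.

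**Figure D5:**
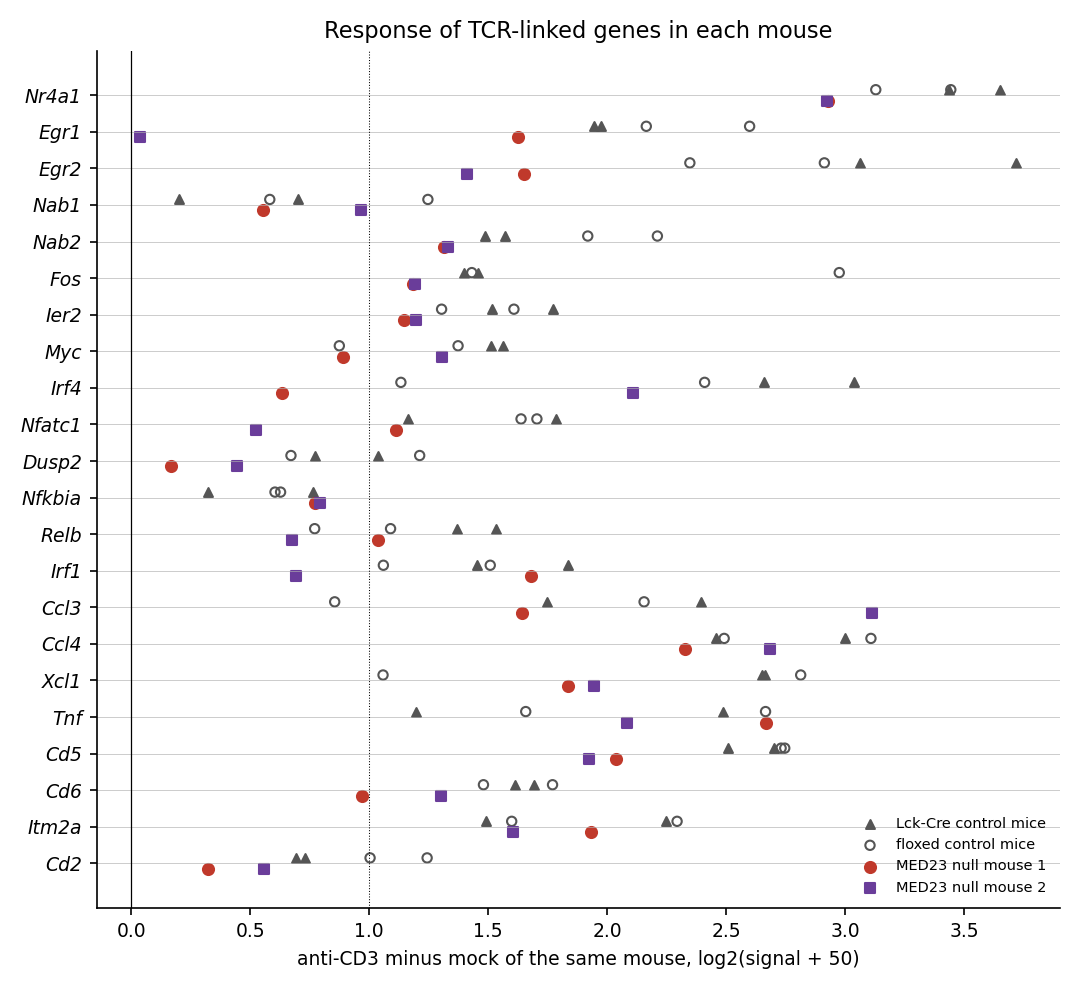
αCD3 minus mock difference (log2(signal + 50) scale) of 22 genes in each mouse, with null mice as filled circles and squares and control mice as triangles and open circles; the dotted line marks 2-fold. Both null points lie left of all 4 control points for *Nr4a1*, *Egr1*, *Egr2*, *Nab2*, *Fos*, *Ier2*, *Nfatc1*, *Dusp2*, *Cd5*, *Cd6* (brighter probe set) and *Cd2*. They lie among the control points or beyond them for *Tnf*, *Ccl3* and *Nfkbia*. The other *Cd6* probe set, not drawn, had 2.42 and 2.43 against 0.94 to 2.72. The genes were picked with earlier results known, and over all probe sets kept 7.49% had both null responses below all 4 control responses.

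The probe sets named for the largest test statistics of a difference in response read 312 or less on all null arrays, except *Snrp1c-ps2* (267 to 738). *Il5*, a cytokine of type 2 T-cells, went from 142 to 53.1 in mouse 1 and from 116 to 15.4 in mouse 2 (-0.90 and -1.34), where the controls had 0.82 to 1.31 (difference -2.21, adjusted p = 0.31 from limma). A probe set of *Ksr1*, a scaffold of the RAF-MEK-ERK cascade, had -1.34 and -0.76 against 0.45 to 0.94, while the other *Ksr1* probe set had -0.05 and -0.41. *Pcolce* (difference -1.91), *Atp7b* (-1.32) and *Nrsn1* (-1.10) followed in this direction. In the other direction stood *Arsa* (2.16), *Kap* (1.38), *Gga2* (1.10), *Msi1* (2.15) and *Snrp1c-ps2* (2.04), and the second *Arsa* probe set had a difference of -0.01. None passed the adjusted test. The null means of *Arsa* were 17.5 after mock and 133 after αCD3, and those of *Msi1* 39.2 and 183. Both thus passed the filter only through the αCD3 arrays, while *Il5* and *Nrsn1* passed it only through the mock arrays. As the filter reads null arrays alone, it favours a large null response for such probe sets and not a large control response.

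The 10 fallers with the largest smaller change were *Sprr2h*, *Vax2*, *Mob2*, *Dnaaf5*, *Ncs1*, *Aff4*, *Aatk*, *Fkbpl*, *Col9a3* and *Nrsn1*, and none of their probe sets passed the test (adjusted p from 0.274 to 0.806 in limma). *Sprr2h*, a gene of squamous epithelium, went from 229 to 39.9 in mouse 1 and from 184 to 19.7 in mouse 2. *Vax2*, an eye homeobox gene, went from 347 to 86.5 and from 431 to 124. After αCD3 all of these probe sets read 7.60 to 124 on the null arrays. *Dnaaf5*, *Col9a3* and *Nrsn1* have a brighter probe set each, which gave 0.45 and -0.08 for *Dnaaf5*, 0.22 and -0.67 for *Col9a3* and -0.68 and 0.46 for *Nrsn1*. Among the top risers, *Zfp282* and *Rpl7* also had low mock signals, 35.5 to 40.0 for the former and 11.7 to 16.8 for the latter. The bright probe set of *Rpl7*, a ribosomal protein gene, had -0.24 and -0.03.

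The *Med23* probe set read 207 to 268 on the null arrays, below the 288 to 489 of all 8 control arrays, a log2 difference of -0.56 between the means of the mice (exact permutation test over 2 against 4 mice, two-sided p = 0.0667, which is the smallest that this design allows). It did not move with αCD3 in a shared direction (-0.08 and 0.17), and where its probes lie relative to the deleted exons was not analysed here. Thymocyte markers dominated every sample, with *Rag1* at 21097 to 26760 and *Cd8b1* at 15426 to 18704 on the null arrays. The 10 thymocyte markers summed to 94175 to 99997 on the 4 null arrays, below the 101710 to 117680 of all 8 control arrays, and the part of this gap in the responses was not tested. Epithelial markers were near the lower end, with *Foxn1*, *Krt5*, *Krt8*, *Krt14* and *Epcam* all under the filter. Summed B-cell, myeloid and epithelial marker signals of the null arrays overlapped those of the controls. Erythroid markers, led by *Hba-a1*, summed to 38131 and 39491 in null mouse 1 and to 15895 and 16719 in null mouse 2, so they set the null mice apart from each other and hardly moved with treatment. On the 8 control arrays these sums were 7147 to 17648, so null mouse 1 lay above all control arrays and null mouse 2 within their range. The part of this in the responses was not tested.

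The actin control of the array, whose 3′ over 5′ ratio is a sign of RNA quality, went from 1.44 to 1.90 in null mouse 1 and from 1.63 to 1.61 in null mouse 2, and was 1.35 to 1.41 on the control αCD3 arrays. Its part in the responses was not tested. One control array that enters the spread stood apart. After αCD3, floxed control replicate 1 had a lower quartile of signal of 85.3, against at most 58.4 on the other 11 arrays, and a mean correlation with the other arrays of 0.928 against 0.952 to 0.957.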

How the data were processed

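Total thymocytes of 6 mice were measured after mock or αCD3 treatment, with 1 array each. The deposited intensities are MAS5 signals of the authors, linear and with 1 value per probe set. The MAS5 version is not given in the sources used here. All 12 columns were used. Of 12488 probe sets, 66 array controls were left out. Signals were transformed to log2(signal + 50), and probe sets with a null mean of at least 100 in either treatment were kept. Mock and αCD3 arrays were paired because the labels give the same mouse for both, and the replicate numbers do not pair mice of different genotypes. Differences within each mouse were fitted in limma 3.58.1 (R 4.3.3) with a mean for the 2 null and for the 4 control mice and a shared spread (4 residual degrees of freedom), with eBayes moderation and Benjamini-Hochberg adjustment over the 8596 probe sets at a threshold of 0.05. The fit was tested on simulated data. The replicates are separate mice. Precision is limited by the small number of arrays.

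Gene symbols come from the platform annotation, updated by Entrez ID to RefSeq on GRCm38.p6 (10839 of 10855 probe sets with 1 symbol matched; 396 have several and 1237 none). In the 25 gene lists a gene with several probe sets is read from the brightest on average over the 12 arrays. The members, the lists and the rule for named genes were chosen with earlier results of these data known. The rule took all probe sets past the threshold, up to 10 genes in each direction with at least 2-fold change in both null mice, up to 4 members of each list, 5 genes in each direction for the difference, and genes that the study discusses. Other genes were named from the lists after their values were seen, as were the unassigned probe sets, *Lta*, *Bcl2*, *Gadd45b* and *Rrad*. The fits were repeated with other pseudocounts, other filters, trimmed-mean scaling, quantile normalization, leaving out each mouse, either control genotype alone, no block by mouse, the null mice alone and a variance trend.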

Additional observations from a re-analysis of the deposited data

Results flagged for a closer look

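For 14 named probe sets every null mouse moved one way and every control mouse the other, and the difference in response, null minus control on the log2 scale, was tested in limma without any passing the adjusted threshold. Over all probe sets kept this was seen for 1.72% with the null mice lower and for 1.71% with the null mice higher, and most of the larger ones, such as *Il5*, *Arsa*, *Ksr1*, *Pcolce* and *Msi1*, were named for their large difference, which makes the pattern likely. *Il5*, *Arsa* and *Msi1* also passed the filter on null arrays through 1 treatment only, which favours a large null response. Lower in the null mice were *Il5* (-2.21), *Pcolce* (-1.91), *Ksr1* (-1.82), *Atp7b* (-1.32), the B-cell marker *Ms4a1* (-0.73), *Dusp6* (-0.56) and *Bid* (-0.55). Higher were *Arsa* (2.16), *Msi1* (2.15), *Snrp1c-ps2* (2.04), *Kap* (1.38), *Gga2* (1.10), *Pa2g4* (0.79) and *Hba-a1* (0.19). Among the 4 control mice, *Med23*flox/flox replicate 1 lay far from the other 3 for *Xcl1* (response 1.06) and for *S1pr1* (0.83); chance alone sets about 1 in 20 such groups apart. The array's control probe set for *Il2*, outside the comparison, read 143 on the αCD3 array of null mouse 1, above every control array, where the *Il2* probe set itself read 10.0.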

How the results depend on the processing

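The count of probe sets that rose was 3 under other pseudocounts, filters of 200 or over 6 conditions, quantile normalization and trimmed-mean scaling, each time with the same genes. It was 1 with no filter, 8 with a variance trend, 0 with the *Lck-Cre* or the floxed controls only, 0 with the null mice alone, and 0 to 1 when a mouse was left out. With no replicate block, so that mock and αCD3 arrays were not paired by mouse, it was 0. The 8 added *Ier2*, *Itm2a*, *Nfkbia* and both *Cd6* probe sets. Counts that fell or differed between genotypes were 0 throughout. Probe sets at least 2-fold up in both null mice numbered 69 and 17 with pseudocounts of 16 and 100, 23 with a mean of 200 and 97 without a pseudocount, and those down 67, 5, 10 and 98. A mouse left out gives no such count. Signs turned for *Med23*, whose response was -0.0758 to 0.168 when a mouse was left out, and whose difference was -0.239 to 0.118 when a mouse was left out, 0.0067 with quantile normalization and 0.15 with *Lck-Cre* controls only. They also turned for the brighter *Pcyt1a* probe set, whose difference was -0.158 to 0.311 when a mouse was left out and -0.076 with *Lck-Cre* controls only. The causes were not tested. A mean under 200 over the null arrays, where signal over background is smallest, was seen for 22 of 36 probe sets up, 26 of 30 down and 27 of 38 with opposite changes.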
